A study of Mus musculus with 98 samples.

Results

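EnA is the arterial endothelial subtype of the nonepithelial thymic stroma (NETS) of the mouse. Its members are the cells that carry the name EnA in the authors' deposited annotation, 449 of the 36208 cells annotated in the age series. They came from 8 libraries, with 10 cells at E12.5, 140 at E13.5, 34 and 55 at E16.5, 29 and 31 at P0, and 79 and 71 at 4 weeks of age (W4). The nearest subtypes are EnC, the capillary endothelium (2366 cells), and EnVL, the venous and lymphatic endothelium (838 cells). Because the authors named the clusters from these same counts, levels that set EnA apart from EnC and EnVL are given as a description with no test.

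Arteries deliver blood and blood-borne progenitors to the thymus, and their endothelium differs from that of capillaries and veins in the genes it uses. Arterial identity is laid down in the embryo by Vegf and Notch signals together with SoxF transcription factors, and the arterial wall later acquires elastic fibres, on which it depends for its recoil. Endothelium also presents MHC class I molecules, responds to interferon and, in the thymus, provides chemokines and kit ligand to haematopoietic progenitors.

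The cells of the age series were from wild-type (WT) C57BL/6 mice and had been sorted as live Ter119-CD45-EpCAM- cells before capture with the 10x Genomics 3′ assay, which tags the end of each transcript with a random barcode, the unique molecular identifier (UMI), so that copies made by PCR count once. The thymi of E12.5 and E13.5 were pooled from 2 litters. For adult thymi only, the paper describes a depletion of CD45+ cells with magnetic beads before staining. These ages have 1 library each, and the later ages have 2. A second data set held newborn live Ter119-CD45- cells, fixed in RNAprotect, of 3 libraries labelled Tbx1+/-Crkl+/- and 3 of WT littermates. It had 117 EnA cells, whose names had been transferred from the age series. The bulk data gave read counts of sorted CD31+ cells, which are endothelium of every kind, in 6 libraries at P0 and 6 at 4 weeks, all of them WT. At each age some titles carry the prefix DFCK and others TXCK, whose meaning the labels do not give. The cells of each later age came from 2 thymi, and those of the newborn data from 3 mutants and 3 WT littermates. Since no label ties a library to 1 animal, p-values measure the spread between libraries, and where libraries share an animal that spread is technical.

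EnA held 160125 to 1423199 UMIs per library of the age series, and the median cell held 4758 to 15550 UMIs, with the lowest medians at W4 (5643 and 4758, against 9343 and 8817 at P0). In the newborn data the median was 2327 to 3344 UMIs. Of the 36053 cell barcodes of the age series 0.430% occurred in more than 1 library, none of them as EnA in both. Transcripts of other cell types were measured in EnA beside the results. The 8 fibroblast genes summed to 164.9 to 872 CPM (UMIs of a gene scaled to 1000000 UMIs of EnA in the library) in every library except library 1 of P0, where they reached 5379 CPM (Col1a1 1116 CPM, against 32.7 CPM in library 2 of P0). The haemoglobin and other red cell genes summed to 134.1 to 30792 CPM, with no order by age. They were at 134.1 to 488 CPM in E12.5, E13.5, library 1 of P0 and library 1 of W4, and at 12455 CPM or more in the other 4 libraries. Of the mural cell genes, 10 in all, the sum was 25 to 945 CPM at E16.5, 391 to 1191 CPM at P0 and 1212 to 3863 CPM at W4. The 5 neural crest and glial genes summed to at most 29.5 CPM (E13.5) and to 14.6 to 21.6 CPM at W4. Sox10 and Foxd3 of these were at 0 in every library, whereas Mal, a myelin gene, was at 0 in both E16.5 libraries and at 9.10 and 16.8 CPM at W4, at least 4.91-fold higher, a call lost without library 2 of W4 (adjusted p = 0.106). The 4 mesothelium genes summed to at most 9.58 CPM, with Msln at 0. Prox1, the regulator of lymphatic fate, reached at most 4.24 CPM.

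EnA had the transcripts that its name calls for. The gap junction gene Gja5 (connexin 40) averaged 310 CPM ± 150 (SD, n = 8 libraries) in EnA, 3.12 CPM ± 5.63 in EnC and 1.56 CPM ± 3.28 in EnVL. Sox17, the SoxF factor of arterial fate, stood at 443 to 850 CPM in EnA and averaged 178.8 CPM ± 56.9 in EnC and 147.5 CPM ± 37.6 in EnVL. Egfl8, a secreted EGF-domain protein, ranged from 56.2 to 527 CPM in EnA and averaged 7.0 CPM ± 5.29 in EnC. Of the 4 marker genes given for the subtype, Sox17 and Egfl8 were higher in EnA than in EnC and EnVL in every library, whereas Kitl, the kit ligand, and Pecam1 (CD31), which all endothelium carries, were highest in EnA in 6 of 8 libraries each.

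Of 30 listed arterial genes, 24 were highest in EnA in all 8 libraries. Notch4, Nrp1, Cxcr4, Cxcl12 and Cav1 were among those that were not. None of 12 capillary genes and none of 12 venous genes was highest in EnA throughout. Of the 15 Notch pathway genes, the ligands Dll4, Jag1 and Jag2, the receptor Notch1 and the targets Hey1 and Hey2 were. Eln (elastin), Fbln5 (fibulin 5, which assembles elastic fibres) and Ltbp4 (which binds latent TGF-beta and fibulins) were 3 of the 8 genes of 24 matrix genes that stood out in the same way, beside Mgp, Fn1, Lama5, Lamb2 and Col18a1.

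Across all genes with a mean of at least 50 CPM in EnA (3461 genes), 290 were highest in EnA in every library, and 41.0% of these by a mean of at least 2-fold over the higher of the other 2 subtypes. The 20 genes with the largest ratio were, in falling order, Gja5, Gkn3, Bmx, Col8a1, Gja4, Stmn2, Nebl, Egfl8, Pcsk5, Tox2, Ptprr, Tmem100, S100a4, Sema3g, Emp2, Htra1, Mgp, Fbln5, Hey1 and Clu. The mean log2 ratio was 6.71 for Gja5 and 2.90 for Clu. In the newborn libraries 11 of the 20 were highest in EnA in all 6. This too is a description, since the names of the newborn cells had been transferred from the age series. The share of all genes highest in EnA there was not counted, so the 11 have no background. Gkn3, a secreted gastrokine of arterial endothelium, was highest in EnA in only 1 of the 6 libraries. Bmx, a Tec family kinase, had a mean log2 ratio of 4.76 in the age series and 4.70 in the newborn libraries. Other ratios shrank more, that of Egfl8 from 4.22 to 1.68 and that of Mgp from 3.13 to 0.57. Of the 20 genes, only Nebl had a larger ratio in the newborn libraries (5.05 against 4.24).

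Single cells carried these transcripts in differing shares. At least 1 UMI of Sox17 was found in 96.2% ± 3.41 (SD, n = 8 libraries) of EnA cells, 66.5% of EnC, 56.5% of EnVL and 0.829% of MedFb2a, a fibroblast subtype that should lack it. The median depth was 8883 UMIs in EnA and 10862 in MedFb2a, so depth did not favour EnA. After every cell was thinned to 2000 UMIs, which left out 6 EnA cells, the shares were 69.4% ± 8.91 in EnA, 26.5% in EnC, 20.1% in EnVL and 0.199% in MedFb2a. Gja5 was seen in 58.3% of EnA cells, 1.93% of EnC and 0.472% of MedFb2a, and after thinning in 34.5%, 0.422% and 0.10%. Gja4 had a UMI in 89.9% of EnA cells and, by library, in 3.88 to 59.4% of MedFb2a, and after thinning the means were 71.3% and 10.3%. At W4 the thinned share was 21.9% and 16.7% in MedFb2a, against 7.17% and 5.36% in EnC, so for this gene MedFb2a gives no background level. Capillary genes were found in many EnA cells too. Before thinning, Fabp4 was in 76.0% ± 37.5 of EnA cells and 89.9% of EnC. Cd36 was in 59.7% ± 37.7 and 75.0%, and Gpihbp1 in 57.3% ± 25.6 and 89.8%. In EnA, Fabp4 was in 100% of cells of both E16.5 libraries and in 94.9% and 98.6% at W4.

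**Figure D1:**
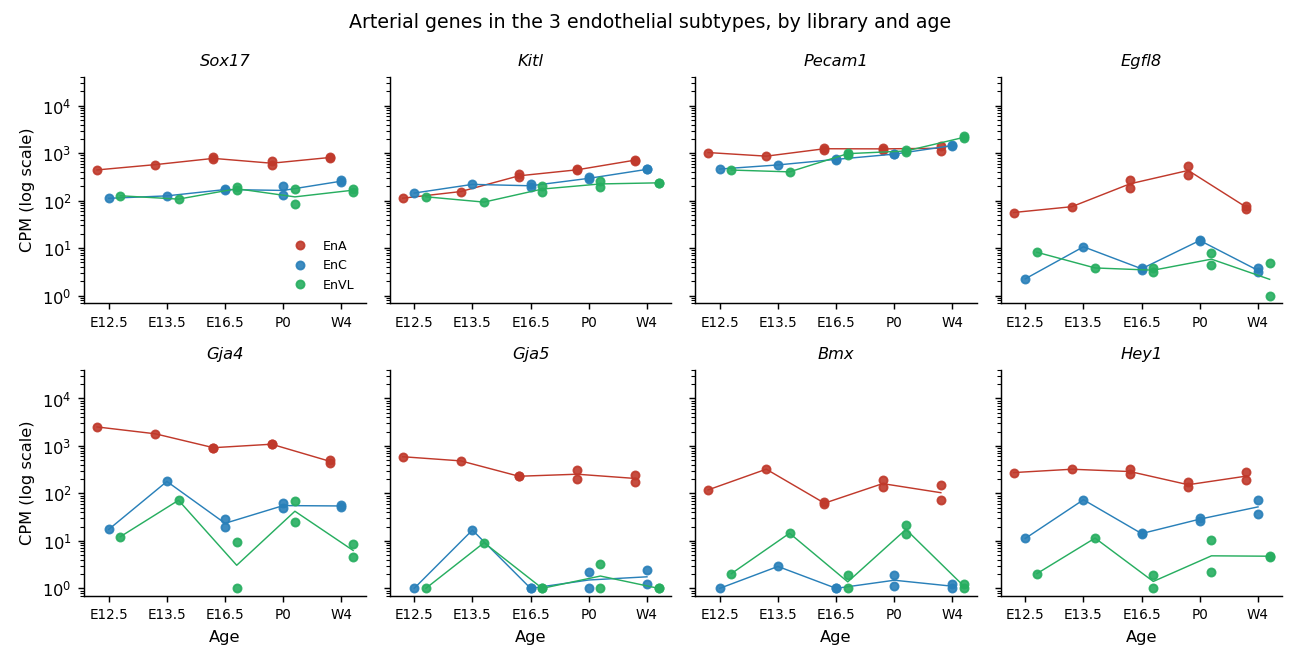
Levels of 8 arterial or endothelial genes in EnA, EnC and EnVL by age. Each point is 1 library (CPM of summed UMIs, log axis, values under 1 CPM drawn at 1), and lines join the geometric mean of each age. Sox17, Gja4, Gja5, Bmx and Hey1 lie above EnC and EnVL at every age, whereas Pecam1 overlaps.

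The share of EnA among NETS was measured next. It was 0.501% at E12.5 (95% Wilson interval 0.272 to 0.919, counting error only) and 2.49% at E13.5 (2.11 to 2.93), then 0.589% and 0.835% at E16.5, 0.618% and 0.543% at P0, and 3.08% and 2.17% at W4. Both W4 libraries lay above all libraries of E16.5 and P0, which overlapped one another. Cell numbers of the 19 subtypes were tested with edgeR's quasi-likelihood test with libraries as replicates (n = 2 against 2), and p was adjusted over the subtypes by Benjamini and Hochberg. The log2 change in share from P0 to W4 was 2.17 ± 0.29 (SE, adjusted p = 0.0033) and that from E16.5 to W4 was 1.87 ± 0.28 (adjusted p = 0.0073). The latter missed the threshold without library 1 of E16.5 (log2 1.65, adjusted p = 0.058) and without library 2 of E16.5 (log2 2.15, adjusted p = 0.058). From E16.5 to P0 the value was -0.30 ± 0.29 (adjusted p = 0.50). As a share of endothelial cells, EnA was 7.58% at E12.5 and 21.5% at E13.5 (18.6 to 24.9), the highest of the 8 libraries. It rose in each interval tested from E16.5 on, from 5.34% and 6.94% at E16.5 to 10.2% and 10.7% at P0 and 18.6% and 16.0% at W4. This scale was fitted with EnA, EnC and EnVL alone, by the same test. Its p was adjusted over these subtypes and not over the 19, so it is not alike to that among NETS. The log2 change on this scale was 0.74 (adjusted p = 0.0057) from E16.5 to P0, 0.72 ± 0.17 (adjusted p = 0.0071) from P0 to W4, where the change among NETS was 2.17, and 1.47 ± 0.15 (adjusted p = 1.5e-05) from E16.5 to W4. The cells of a library had been sorted and filtered, so these shares are of captured cells. The bead depletion described for adult thymi cannot be told apart from age here.

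**Figure D2:**
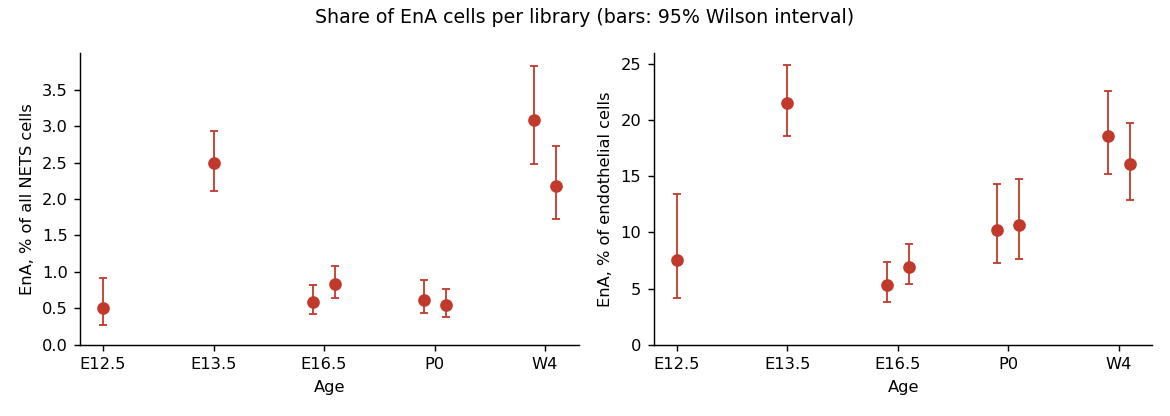
EnA as a percentage of NETS cells and of endothelial cells in each of the 8 libraries. Bars on the points are 95% Wilson intervals of counting error. The W4 libraries (3.08% and 2.17% of NETS) lie above those of E16.5 and P0.

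To follow the subtype over development, UMIs were summed over the EnA cells of each library and all 8274 genes past the filter were fitted together. Libraries of the 2 youngest ages entered the fit but have no replicate, so no change to or from them was tested on its own. A joint test over all 5 ages called 2672 genes (32.3%), on the assumption that these lone libraries vary like those of the later ages, and nothing below rests on it. The 3 intervals between the later ages were then tested: E16.5 to P0, P0 to W4 and E16.5 to W4, and P0 to W4 shares its P0 libraries with E16.5 to P0. The median log2 change of all genes was between 0.031 and 0.058 in each.

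Eln, Fbln5, Fbln2 and Ltbp4, which belong to elastic fibres, rose from E16.5 to P0, and 7 of the 11 capillary genes tested fell. In this interval 367 genes passed the test, 4.44% of those tested, with 2.31% higher at P0 and 2.13% lower. Without library 1 of E16.5 these were 0.810% and 0.677%, without library 2 of E16.5 they were 1.05% and 0.967%, and without library 2 of P0 1.33% were lower. Of the 24 matrix genes, 8 rose and 5 fell (median log2 change 0.40), and without library 1 of E16.5 the counts were 5 and 3, and with the Wald test of DESeq2 5 and 4. None of the 11 capillary genes rose (median -1.18), and 4 fell without library 1 of E16.5.

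Eln, the core protein of elastic fibres, stood at 606 CPM at E12.5, 5929 at E13.5, 653 and 2164 at E16.5, 20447 and 12292 at P0, and 795 and 405 at W4. Both P0 libraries were above every other library. The log2 change from E16.5 to P0 was 3.47 ± 0.41 (adjusted p = 0.000221). Fbln5 followed with 770 and 1202 CPM at E16.5 and 3226 and 3472 at P0 (log2 1.69 ± 0.18, adjusted p = 0.000149), after 56.2 CPM at E12.5 and 4365 at E13.5. In the 6 newborn libraries, however, Fbln5 averaged 718 CPM ± 253 (SD) in EnA, below both E16.5 libraries. Ltbp4 went from 129 and 198 CPM to 729 and 825 CPM (log2 2.16 ± 0.20, adjusted p = 5.45e-05). For Fbln2, another fibulin, 839 and 1047 CPM became 1925 and 2735 CPM (log2 1.23, adjusted p = 0.00167). The groups did not overlap for any of these genes, and each passed the test without any 1 library. Of the 8 fibroblast genes 5 rose in the same interval, and none did without library 1 of P0 or without either library of E16.5. Because these genes were high in library 1 of P0, the fit was repeated without cells in which red cell, mural and fibroblast genes took over 1% of the UMIs, an alternative added after the data were seen. This left 25 and 29 EnA cells at P0, and the change of Eln was 3.43 ± 0.27 and that of Fbln5 1.76 ± 0.16.

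The 5 matrix genes that fell were Col4a1, Col4a2, Nid2, Col15a1 and Sparcl1. Col4a1, a chain of the type IV collagen of basement membranes, stood at 1872 and 1512 CPM at E16.5 and 489 and 815 CPM at P0 (log2 -1.46 ± 0.23, adjusted p = 0.00148), after 1592 CPM at E12.5 and 571 at E13.5. Nid2 (nidogen 2) fell from 257 and 212 CPM to 54.4 and 65.4 CPM (log2 -2.03, adjusted p = 0.00117). The calls of Col4a2, Col15a1 and Sparcl1 were each lost without 1 of the E16.5 libraries. Lamb2, a laminin chain that is also of basement membranes, was called higher, with 96.0 and 74.9 CPM at E16.5 and 166.7 and 219 CPM at P0 (log2 1.12 ± 0.25, adjusted p = 0.0176), a call lost without either library of E16.5 or library 2 of P0 and with the Wald test of DESeq2 (adjusted p up to 0.195).

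Among capillary genes, Gpihbp1, which carries lipoprotein lipase to the capillary lumen, was at 1516 and 1102 CPM at E16.5 and at 297 and 576 CPM at P0 (log2 -1.66 ± 0.27, adjusted p = 0.00213). In the youngest libraries it had been at 56.2 and 23.9 CPM. Aplnr, the apelin receptor, fell from 106 and 90.4 CPM to 7.25 and 13.1 CPM (log2 -3.30 ± 0.54, adjusted p = 0.00213). Kdr, the main Vegf receptor, fell by 1.18 on the log2 scale (adjusted p = 0.00128) and Plvap, of fenestral diaphragms, by 1.18 as well (adjusted p = 0.00213). For these genes no E16.5 library overlapped a P0 library and no single library decided the call. Rgcc, by contrast, missed the threshold without library 1 of E16.5 (log2 -1.54, adjusted p = 0.053).

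The spread of elastin between cells was wide at P0. With each cell thinned to 2000 UMIs, the median cell held 4 UMIs of Eln in both P0 libraries, whereas the 90th percentile was 126.9 and 82 UMIs. At E16.5 the medians were 0 and the 90th percentiles 2.8 and 13.8 UMIs, at E13.5 the median was 13 UMIs and the 90th percentile 26, and at W4 both libraries had a median of 1 and a 90th percentile of 3. The tenth of cells with the most Eln held 85.7% and 84.4% of its UMIs at E16.5, 41.4% and 54.9% at P0, 60.98% and 31.9% at W4 and 23.4% at E13.5. At E12.5, with 10 cells, it held 88.9%. These shares were thus larger at E16.5 than at P0, and the smallest was at E13.5. Counting alone makes such a share larger where cells hold fewer UMIs, so the shares do not rank the ages by how evenly Eln was spread. Within a library of P0, cells rich in Eln were poor in the 12 capillary genes (Spearman rho -0.77 over 28 cells and -0.84 over 31). The value was -0.66 and -0.57 at E16.5, -0.17 at E13.5, and -0.01 and 0.02 at W4. Over the 10 cells of E12.5 it was 0.39. Cells of one library share its capture and the genes share the 2000 UMIs of a cell, so these are descriptions. Whether the kind of cell named EnA or the transcripts within such cells differed between E16.5 and P0 was not tested. Against the fibroblast genes, rho of Eln was 0.44 and -0.04 in the P0 libraries.

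**Figure D3:**
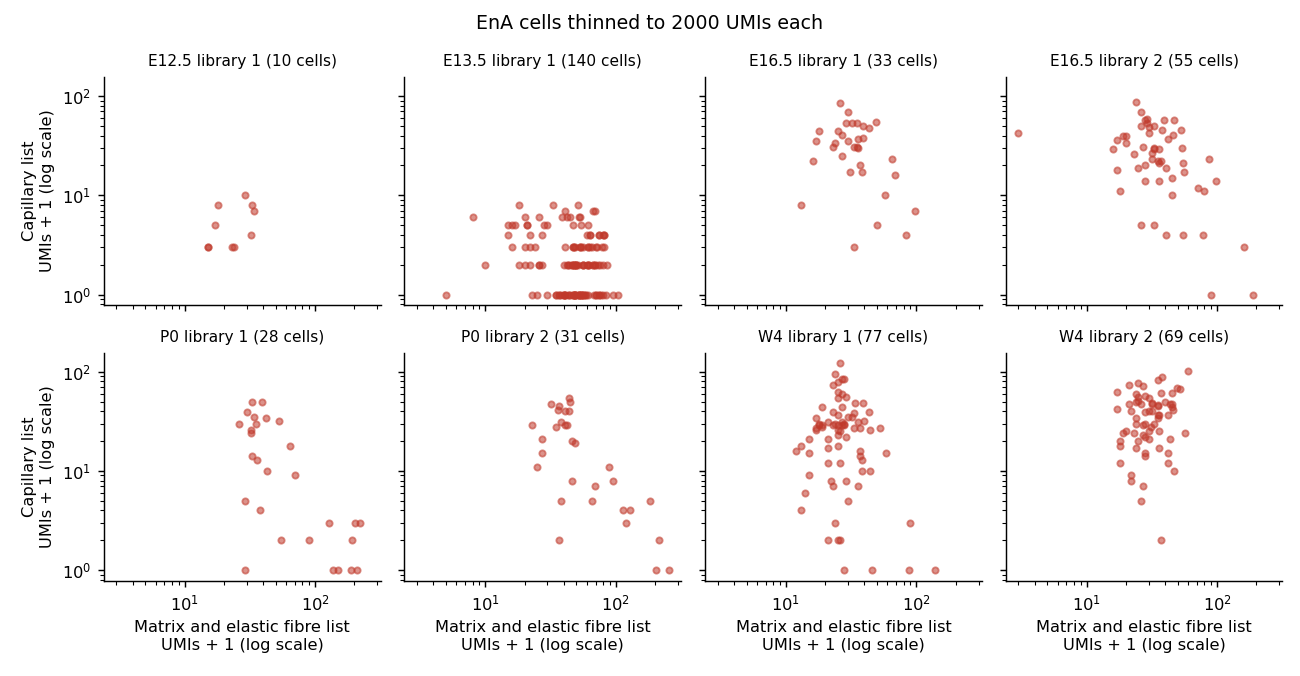
Single EnA cells by age, each thinned to 2000 UMIs. The axes give the summed UMIs plus 1 of the 24 matrix and elastic fibre genes and of the 12 capillary genes on log scales. The cells of P0 spread along a falling band (Spearman rho -0.59 and -0.62), and those of W4 do not (-0.04 and 0.17).

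Arterial identity genes moved in both directions before birth, 8 of 30 higher at P0 and 2 lower (median 0.31). Without library 1 of E16.5 these counts were 3 and 0, without library 2 of P0 they were 3 and 2, with the Wald test of DESeq2 5 and 1, and with equal numbers of cells 5 and 0. Ltbp4 and Fbln5 are among the 8. Gkn3 stood at 31.2 CPM at E12.5, 743 at E13.5, 4.17 and 53.7 at E16.5, 352 and 294 at P0, and 78.2 and 21.6 at W4. In the age series it was high at E13.5 and P0, and neither E16.5 nor W4 reached the level of P0. In the 6 newborn libraries, which are of both genotypes, Gkn3 averaged only 3.53 CPM ± 8.65 (SD) in EnA. The log2 change from E16.5 to P0 in the age series was 3.24 ± 0.50 (adjusted p = 0.0014). This call was lost with the Wald test of DESeq2 (adjusted p = 0.10) and with equal numbers of cells per library (adjusted p = 0.062). Of the Notch targets, Hey2 and Hes1 rose and Hey1 fell, but each of these calls was lost without 1 or more libraries (all of them without library 1 of E16.5).

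All genes past the threshold whose groups did not overlap were then ranked by their change, list members included. Among the 10 that rose most, Ptgis, the prostacyclin synthase of vessel walls, was at 0 in both E16.5 libraries and at 112.4 and 39.3 CPM at P0, at least 29.3-fold higher (15.5-fold from library 2 of P0 alone). Sfrp2, a secreted inhibitor of Wnt signals, was at 0 at E16.5 and at 500 and 22.9 CPM at P0, at least 98.7-fold higher, with most of its UMIs in library 1 of P0, in which fibroblast genes were high, and the bound from library 2 alone is 9.06-fold. Cytl1, a secreted cytokine-like protein, went from 6.26 and 5.65 CPM to 410 and 154 CPM (log2 5.44 ± 0.70, adjusted p = 0.000429). Col1a1, a chain of fibroblast type I collagen, and Sfrp1, a further Wnt inhibitor, were also among the 10. Without library 1 of P0 their log2 changes were 0.12 and 2.04 (adjusted p = 0.95 and 0.20), and neither passed without library 1 of E16.5.

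Ankrd37 and Egln3, which respond to low oxygen, and Slc2a1, the glucose transporter Glut1, were among the 10 that fell most. Ankrd37 stood at 232 and 199 CPM at E16.5 and 36.2 and 16.4 CPM at P0 (log2 -3.12 ± 0.34, adjusted p = 0.000149). Slc2a1 fell from 129 and 140 CPM to 14.5 and 26.2 CPM (log2 -2.78 ± 0.39, adjusted p = 0.000815). Egln3 went from 48.0 and 74.9 CPM to 3.62 and 3.27 CPM (log2 -4.18, adjusted p = 0.00191), a call lost without library 2 of E16.5 (adjusted p = 0.082). Nts, which encodes the peptide neurotensin, was at 530 and 114 CPM at E16.5 and at 7.25 and 3.27 CPM at P0 (log2 -5.97 ± 0.91, adjusted p = 0.00128). At P0, 3 UMIs over both libraries made 5.16 CPM. The P0 levels of Egln3 and Nts thus rest on few UMIs, and their folds are imprecise. Vcam1, an adhesion molecule for leukocytes, rose from 29.2 and 28.3 CPM to 341 and 111 CPM (log2 2.87 ± 0.43, adjusted p = 0.00117). Immediate early genes, which tissue digestion is known to induce, also moved in this interval, 7 of 19 higher and 1 lower, and their summed level in EnA was 11441 to 13095 CPM at E16.5 and 15388 to 22144 CPM at P0. The part of digestion in the other results was not tested.

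From P0 to W4, 10 of 13 antigen presentation genes and 9 of 16 interferon response genes rose in EnA, and 11 of 24 matrix genes and 12 of 17 fetal growth genes fell. Of the genes tested, 739 passed (8.93%), 366 higher at W4 (4.42%) and 373 lower (4.51%). The share higher was 2.04% without library 1 of P0, 1.90% without library 1 of W4 and 2.31% without library 2 of W4, and the share lower was 1.79% and 2.92% without library 1 and library 2 of W4. Cells at W4 were shallower than at P0, and immediate early genes were lower (12 of 19 fell, with Fos at 4317 and 2058 CPM at P0 and 1050 and 1212 CPM at W4). The heat shock genes Hspa1a and Hspa1b, near-identical copies between which reads cannot be divided with certainty, rose with log2 changes of 2.57 and 3.64. What part depth and digestion have in the changes with age was not tested. The bead depletion described for adult thymi cannot be told apart from age in any comparison with W4.

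No antigen presentation gene fell, the median log2 change of the 13 tested was 1.59, and 9 or 10 rose without any 1 library. H2-K1, a class I heavy chain, stood at 18.7 and 30.9 CPM in the youngest libraries, 530 and 510 at E16.5, 750 and 1106 at P0, and 2820 and 3293 at W4. Both W4 libraries were above all others (log2 1.67 ± 0.20 from P0, adjusted p = 0.000108). B2m, the class I light chain, went from 750 and 618 CPM to 1920 and 2146 CPM (log2 1.53 ± 0.18, adjusted p = 9.25e-05). H2-T23, which encodes the nonclassical molecule Qa-1, was at 6.25 and 6.32 CPM in the youngest libraries, 18.8 and 12.7 at E16.5, 65.2 and 75.3 at P0, and 331 and 323 at W4 (log2 2.17 ± 0.25, adjusted p = 5.41e-05). These class I genes belong to a family of similar sequences, so reads may be divided between them with error. The peptide transporter gene Tap2 and the immunoproteasome genes Psmb8, Psmb9 and Psmb10 rose as well, with log2 changes of 1.64, 1.61, 1.55 and 1.59. The sum of the list was 3922 to 4502 CPM at P0 and 10673 to 11710 CPM at W4. Over the same interval the 10 leukocyte genes summed to 22.9 to 47.1 CPM and then 83.8 to 181.9 CPM, with Ptprc (CD45) at 7.25 and 0 CPM at P0 and 29.1 and 7.19 CPM at W4.

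Interferon response genes rose in 9 of 16 cases and none fell (median 1.35). The count was 5 without library 1 of P0, library 2 of P0 or library 2 of W4, and 3 of 14 with equal numbers of cells per library. The Wald test of DESeq2 gave an adjusted p to 9 of the 16, among them 4 of the 9 called, and 1 of these passed. Ifit3, an interferon-induced antiviral protein, was at 0 in the youngest libraries, 4.17 and 4.24 CPM at E16.5, 14.5 and 3.27 at P0, and 112.8 and 182.03 at W4 (log2 4.00 ± 0.51, adjusted p = 0.000169). At P0, where 3 UMIs over both libraries made 5.16 CPM, Ifit3 and Ifit2 rest on few UMIs. Ifit2 went from 3.62 and 6.54 CPM to 76.4 and 95.8 CPM (log2 3.95 ± 0.58, adjusted p = 0.000778), and both genes passed without any 1 library. Rsad2 (viperin) was at 10.9 and 45.8 CPM at P0 and at 111 and 165.3 CPM at W4 (log2 2.18 ± 0.43, adjusted p = 0.0049), and missed the threshold without library 1 of P0 (adjusted p = 0.056). Stat2, Isg15 and Bst2 did not pass. Stat2 had a log2 change of 0.67 (adjusted p = 0.29), Isg15 of 0.62 (adjusted p = 0.18) and Bst2 of 0.58 (adjusted p = 0.077). From E16.5 to P0 none of the 16 passed, with a median of 0.08.

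The promoters of these genes were read beside the counts, since members of both lists rose together. RefSeq promoters of GRCm38.p6 (250 bases before the start of the gene to 50 after) were searched on both strands for GAAA followed by any 2 bases and GAAA again, the core of the interferon-stimulated response element. Of the interferon response genes, 12 had a promoter in the table and 7 of these held it (58.3%). It was held by 2 of 11 antigen presentation genes (18.2%), 3 of 22 arterial genes (13.6%) and 2 of 14 fetal growth genes (14.3%). Over all genes searched the count was 1079 of 27025 (3.99%). The interferon genes had been listed for their response to interferon, so their share is no result of these data. A match of letters is not a bound site. The windows shown are 30 bases on the strand of the gene, with the match in capitals, which reads as copies of TTTC where it lies on the opposite strand. Ifit3, Ifit1 and Rsad2 stand for interferon response genes that hold the element and rose, as Ifitm3 did. Isg15 stands for those that hold it and did not pass, which include Bst2 and Stat2. This division rests in part on single libraries. The call of Ifit1 was lost without library 2 of P0 (log2 1.47) or library 2 of W4 (1.59). That of Ifitm3 was lost without either library of E16.5, library 1 of P0 (log2 0.40) or library 2 of W4 (0.36). B2m and H2-T23 are the antigen presentation genes that hold it.
Ifit3, chr19:34583363-34583392, plus strand: cagtggtaagTTTCACTTTCctcttctggt
Ifit3, chr19:34583397-34583426, plus strand: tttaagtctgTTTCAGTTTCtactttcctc
Ifit1, chr19:34640775-34640804, plus strand: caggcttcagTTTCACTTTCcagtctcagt
Rsad2, chr12:26456553-26456582, minus strand: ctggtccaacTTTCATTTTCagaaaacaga
Isg15, chr4:156200865-156200894, minus strand: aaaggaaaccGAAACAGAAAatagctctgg
B2m, chr2:122147538-122147567, plus strand: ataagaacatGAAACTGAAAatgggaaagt
H2-T23, chr17:36032806-36032835, minus strand: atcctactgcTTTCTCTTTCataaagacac

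The fall of the matrix genes was led by Eln, at 20447 and 12292 CPM at P0 and 795 and 405 CPM at W4 (log2 -4.81 ± 0.44, adjusted p = 9.06e-06). Of 24 matrix genes 11 fell and 1 rose (median -0.59), and 7 fell without library 1 of P0, library 2 of P0 or library 1 of W4, and 5 without library 2 of W4, with the Wald test of DESeq2 or with equal numbers of cells. Mfap2, a microfibril protein that is outside this list, went from 381 and 229 CPM to 14.6 and 4.79 CPM (log2 -4.90 ± 0.37, adjusted p = 1.65e-06). Fbln5 fell less, to 1459 and 1514 CPM at W4 (log2 -1.21 ± 0.18, adjusted p = 0.000719), and stayed above both E16.5 libraries. For Col18a1, the collagen that yields endostatin, 511 and 624.9 CPM at P0 became 176 and 122.2 CPM (log2 -1.97 ± 0.21, adjusted p = 3.4e-05). Ltbp4 did not pass, with 897 and 814 CPM at W4 (log2 0.09, adjusted p = 0.81). Without the cells rich in transcripts of other cell types 10 matrix genes fell.

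Of the arterial genes, 5 rose and 6 fell (median -0.08). By library left out the number that rose was 2 to 6, lowest without library 1 of W4 and 3 without library 1 of P0, and the number that fell was 4 to 6, lowest without library 2 of P0 or library 2 of W4. The Wald test of DESeq2 and equal numbers of cells each gave 4 and 3. Gja4 (connexin 37) was at 2517 CPM at E12.5, 1804 at E13.5, 921 and 918 at E16.5, 1084 and 1093 at P0, and 440 and 513 at W4. In the age series it was highest in the youngest libraries and lowest in both W4 libraries (log2 -1.23 ± 0.17 from P0, adjusted p = 0.000398). Over the 6 newborn libraries Gja4 averaged 482 CPM ± 290 (SD) in EnA. Gja5, its partner in arterial gap junctions, was at 203 and 317 CPM at P0 and 174.7 and 244 CPM at W4, which overlap (log2 -0.37, adjusted p = 0.39). Sema3g, a secreted semaphorin, rose from 225 and 288 CPM to 628 and 599 CPM (log2 1.21 ± 0.19, adjusted p = 0.00101). Alox12, a lipoxygenase, rose from 29.0 and 16.4 CPM to 138 and 136.5 CPM (log2 2.56 ± 0.37, adjusted p = 0.000566). Col8a1, a collagen of vessel walls and one of the 20 genes highest in EnA, stood at 12.49 CPM at E12.5, 188 at E13.5, 33.4 and 48.0 at E16.5, 120 and 101.4 at P0, and 415 and 510 at W4 (log2 2.02 ± 0.23, adjusted p = 6.48e-05).

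Clu (clusterin) went from 261 and 563 CPM at P0 to 1354 and 970 CPM at W4 (log2 1.44 ± 0.27, adjusted p = 0.00313), a call that was lost without library 1 of W4 (log2 1.22, adjusted p = 0.052). The Notch genes Dll4, Jag1, Notch1 and Notch4 and the ephrin Efnb2 did not pass, with adjusted p between 0.286 and 0.804. Of the 13 Notch pathway genes tested, Notch3 was called higher and Hey2 lower, and both calls were lost without library 1 of P0, library 1 of W4 or library 2 of W4. Notch3 is also a mural cell gene, and mural transcripts were higher at W4 too.

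Of the 4 given markers, Kitl and Egfl8 passed the test between P0 and W4. Kitl was at 112.4 and 155.3 CPM in the youngest libraries, 359 and 309 at E16.5, 431 and 461 at P0, and 731 and 699 at W4. Each age from E16.5 lay above the one before without overlap. The log2 change from P0 to W4 was 0.64 ± 0.17 (adjusted p = 0.0251). This call was lost without any 1 library of E16.5, P0 or W4 (log2 0.52 to 0.66). From E16.5 to W4 it was 0.97 ± 0.16 (adjusted p = 0.000468) and held without any 1 library. Egfl8 was at 56.2 and 74.5 CPM in the youngest libraries, 183.7 and 278 at E16.5, 355 and 527 at P0, and 78.2 and 67.1 at W4. In the age series it was highest at P0, and its fall to W4 was a log2 change of -2.64 ± 0.27 (adjusted p = 2.1e-05). In the 6 newborn libraries, which are of both genotypes, Egfl8 averaged 111 CPM ± 92.7 (SD) in EnA. Why the data sets differ was not tested. Sox17 was at 555 and 681 CPM at P0 and 850 and 774 CPM at W4 (log2 0.35, adjusted p = 0.26), and Pecam1 at 1167 and 1299 CPM and 1443 and 1116 CPM (log2 0.01, adjusted p = 0.995).

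Among capillary genes 4 of 11 rose from P0 to W4 and none fell (median 0.93), with 1 without library 1 of P0, 2 without library 2 of W4 and 6 without library 2 of P0, 2 with the Wald test of DESeq2 and 1 with equal numbers of cells. Cd300lg, a glycoprotein of capillary endothelium, was at 0 and 2.81 CPM in the youngest libraries, 177 and 164 at E16.5, 105 and 196 at P0, and 422 and 407 at W4. The W4 libraries were the highest (log2 1.40 ± 0.25, adjusted p = 0.00237), but with equal numbers of cells per library the call was lost (log2 1.02, adjusted p = 0.057). Cd36, a receptor for fatty acids, went from 489 and 664 CPM to 1425 and 1382 CPM (log2 1.23 ± 0.26, adjusted p = 0.0065) and missed the threshold without library 1 of P0 (log2 0.96, adjusted p = 0.065). Gpihbp1 was at 770 and 975 CPM at W4 (log2 0.95, adjusted p = 0.041), a call lost without library 1 of P0, library 1 of W4 or library 2 of W4.

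**Figure D4:**
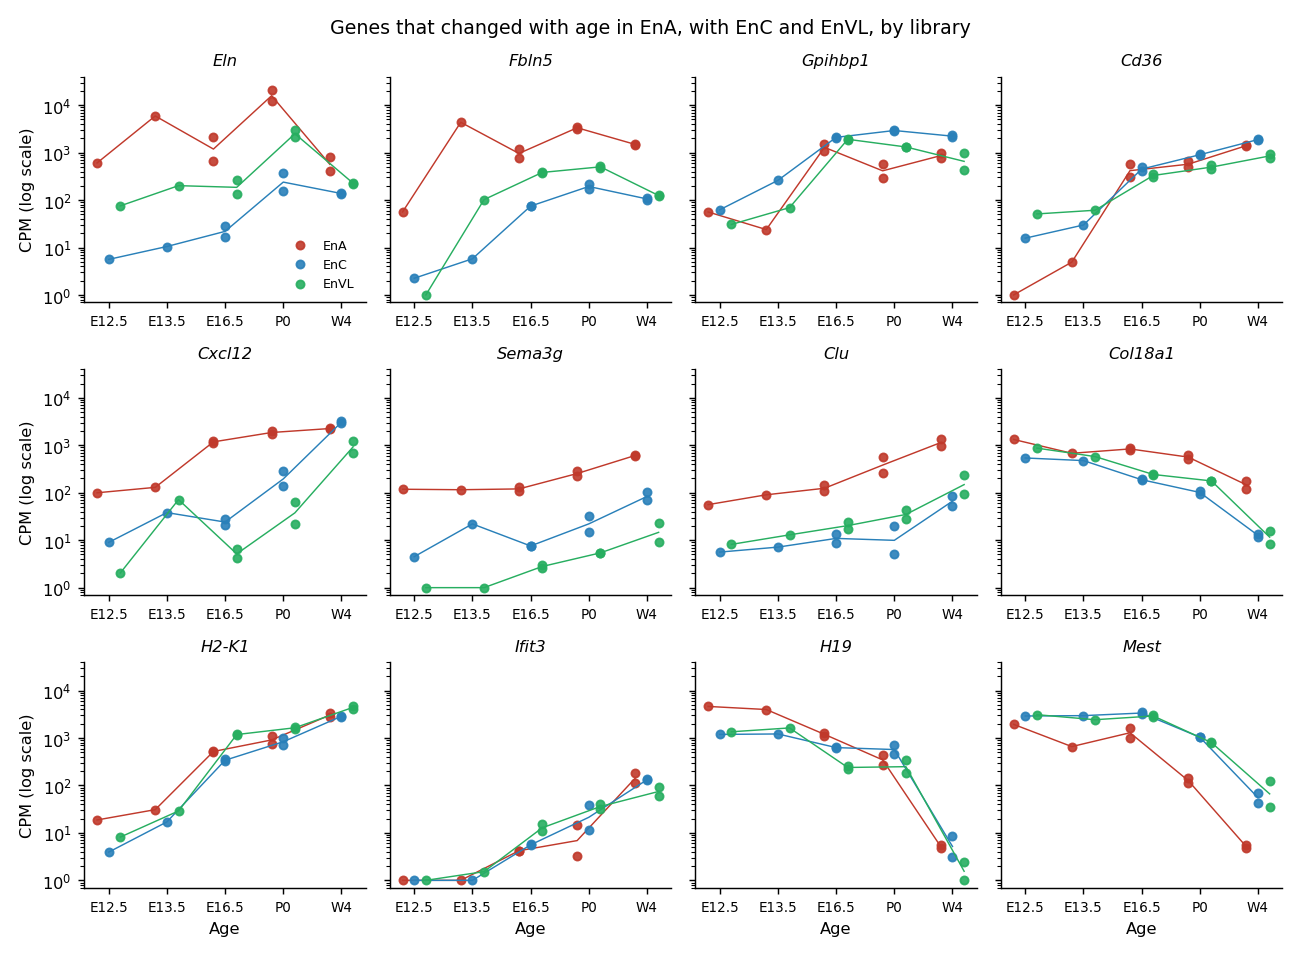
Levels of 12 genes in EnA, EnC and EnVL by age (CPM of summed UMIs, log axis, values under 1 CPM drawn at 1). Each point is 1 library and lines join the geometric mean of each age. In EnA, Eln peaks at P0 (20447 and 12292 CPM), H2-K1 and Ifit3 are highest at W4, and H19 and Mest fall to about 5 CPM at W4.

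Genes of fetal growth fell in 12 of 17 cases and none rose (median -2.76). The number was 8 without library 1 of W4, 8 with the Wald test of DESeq2, which gave an adjusted p to 12 of the 17, and 8 of 13 with equal numbers of cells per library. H19, an imprinted long noncoding RNA, was at 4634 CPM at E12.5, 3988 at E13.5, 1102 and 1296 at E16.5, 446 and 268 at P0, and 5.46 and 4.79 at W4. No age overlapped the next one. The log2 change was -1.83 ± 0.21 from E16.5 to P0 (adjusted p = 0.000166) and -6.09 ± 0.33 from P0 to W4 (adjusted p = 3.76e-08). Mest, an imprinted hydrolase gene, was at 1634 and 1020 CPM at E16.5, 145 and 111 at P0, and 5.46 and 4.79 at W4 (log2 -4.61 ± 0.43 in the later interval, adjusted p = 1.25e-05). Plagl1, an imprinted zinc finger factor, and Marcksl1, an actin-binding protein, fell as well (log2 -4.01 and -4.11, adjusted p = 8.88e-06 and 2.04e-06). Dlk1, an imprinted relative of the Notch ligands, was at 333 and 39.3 CPM at P0 and at 0 in both W4 libraries, at least 57.7-fold lower. Most of these UMIs were in library 1 of P0, and from library 2 alone the bound is 12.7-fold.

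The lists of signals and contacts were read against the 8.93% of all genes called from P0 to W4. Of 14 Tgf-beta and BMP genes tested 4 rose and 1 fell, of 10 genes of thymus entry and niche 2 rose and 2 fell, of 15 Vegf and angiopoietin genes 3 rose and none fell, and of 5 sphingosine 1-phosphate genes and of 13 junction genes 1 rose and 1 fell each. With 1 library left out, 1 to 3 Tgf-beta and BMP genes rose (1 without library 1 of P0 or library 1 of W4), at most 1 gene of thymus entry and niche did (none without any 1 of the P0 or W4 libraries), and 1 to 3 Vegf and angiopoietin genes did (1 without library 1 of P0). Of the falls, that of Bmp4, a member of both the Tgf-beta and the niche list, was lost without library 1 of P0 or library 2 of W4. The fall of Ltbr, listed with the sphingosine 1-phosphate genes, was lost without any 1 of the P0 or W4 libraries. S1pr1, the receptor through which endothelium reads sphingosine 1-phosphate, rose from 178 and 265 CPM to 628 and 513 CPM (log2 1.31 ± 0.21, adjusted p = 0.00124). Pdgfb, the ligand that recruits mural cells, rose from 130 and 177 CPM to 431 and 345 CPM (log2 1.29 ± 0.21, adjusted p = 0.00151). Tgfb2 rose from 79.7 and 49.1 CPM to 255 and 184.4 CPM (log2 1.74 ± 0.28, adjusted p = 0.00126), and Jam2, a junctional adhesion molecule, by a log2 change of 1.19 (adjusted p = 0.00262). These 4 genes passed without any 1 library. Icam1, an adhesion molecule for leukocytes, fell from 246 and 216 CPM to 69.1 and 55.1 CPM (log2 -1.92, adjusted p = 0.000292). Klf2, the factor induced by blood flow, did not pass, with 2911 and 2195 CPM at P0 and 2061 and 2223 CPM at W4 (log2 -0.29, adjusted p = 0.31). Of 9 shear response genes tested 4 rose and none fell, but the count was 2 without library 1 of P0, 1 without library 1 of W4 and 2 without library 2 of W4.

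Among the 10 genes that rose most from P0 to W4 by the same ranking, Hspb1, a small heat shock protein, went from 116 and 72.0 CPM to 2256 and 2457 CPM (log2 4.61 ± 0.25, adjusted p = 3.76e-08). Alpl, tissue-nonspecific alkaline phosphatase, went from 10.9 and 9.82 CPM to 133 and 98.2 CPM (log2 3.42 ± 0.46, adjusted p = 0.000259). Meox1, a homeobox factor, went from 7.25 and 6.54 CPM to 80.1 and 91 CPM (log2 3.54 ± 0.58, adjusted p = 0.00131). Its P0 level is close to the 5.16 CPM of 3 UMIs over both libraries, so this fold is imprecise. Nepn was at 0 in both P0 libraries and at 38.2 and 79 CPM at W4, at least 10.8-fold higher, and its call was lost without library 2 of W4 (adjusted p = 0.081). Rgs5, a gene of pericytes, was at 61.6 and 164 CPM at P0 and at 580 and 2407 CPM at W4 (log2 3.67, a call lost with the Wald test of DESeq2, adjusted p = 0.054). Without cells rich in other transcripts the log2 change of Rgs5 was 2.06 ± 0.33 (adjusted p = 2.41e-05). Rgs5 is itself 1 of the mural genes by which those cells were left out, so this value cannot tell where its transcripts came from. Over the longest interval, from E16.5 to W4, 1971 genes passed (23.8%), 1090 higher (13.2%) and 881 lower (10.6%), with 12 of 13 antigen presentation genes and 10 of 16 interferon response genes higher and 14 of 17 fetal growth genes lower. With 1 library left out the number higher was 563, 519, 540 and 708 without library 1 or 2 of E16.5 or library 1 or 2 of W4, and the number lower was 563 without library 1 of E16.5 and 444 without library 1 of W4.

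**Figure D5:**
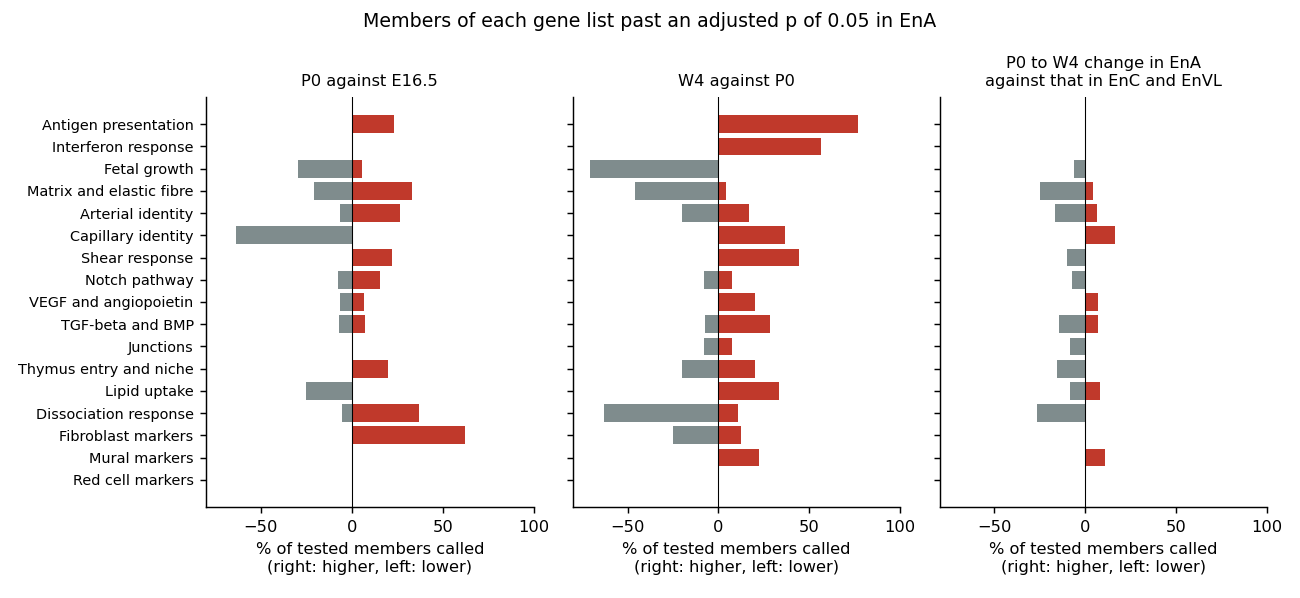
Percentage of the tested members of each gene list that rose or fell in EnA from E16.5 to P0 and from P0 to W4, and that changed differently in EnA than in the mean of EnC and EnVL from P0 to W4. The background over all genes was 4.44%, 8.93% and 1.39%. Antigen presentation, interferon response and fetal growth genes move in 1 direction from P0 to W4, and no antigen presentation or interferon gene passes in the last panel.

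To ask whether these changes were particular to arterial cells, the change from P0 to W4 in EnA was compared with the mean of the changes in EnC and EnVL of the same 4 libraries, with the library as a block. Of 9821 genes, 1.39% passed, with 62 more positive in EnA (0.631%) and 75 more negative (0.764%). Without library 1 of W4 these counts were 17 and 22, and without library 2 of W4 35 were more negative. None of 15 antigen presentation genes and none of 16 interferon response genes passed, with medians of 0.16 and 0.77 against 0.04 over all genes. This does not show that they changed alike. A simulation with known 4-fold differences recovered 14.0% of them, with a spread between libraries that was fixed and not estimated from these data.

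Cxcl12, the chemokine that attracts progenitors through Cxcr4, differed most by p. In EnA it was at 99.9 and 130 CPM in the youngest libraries, 1136 and 1232 at E16.5, 1997 and 1741 at P0, and 2238 and 2280 at W4. In EnC it was at 282 and 135.9 CPM at P0 and at 3272 and 2887 CPM at W4, and in EnVL at 64.8 and 22 CPM and then 701 and 1229 CPM. Thus it was already high in EnA before birth and low in the other subtypes until W4. The difference in log2 change was -3.99 ± 0.28 (adjusted p = 1.66e-06), while the change within EnA did not pass (0.23, adjusted p = 0.41).

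Of the 24 matrix genes 6 were more negative in EnA and 1 more positive (4 and 0 without library 1 of W4, 2 and 2 without library 2 of W4). Eln was at 369 and 154.9 CPM at P0 and 132.1 and 142.98 CPM at W4 in EnC, and at 2938 and 2131 CPM and then 230 and 223 CPM in EnVL, so it fell further in EnA (difference -2.62 ± 0.23, adjusted p = 2.39e-05). For Ltbp4 the difference was -1.34 (adjusted p = 0.0032), a call lost without library 2 of W4 (-1.17). Within EnA the change of Ltbp4 had not passed, so this difference is not a steeper fall in EnA. Sparc, which shapes collagen fibrils, had a difference of -0.78 ± 0.09 (adjusted p = 0.000239).

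Of the arterial genes 2 were more positive and 5 more negative (3 more negative without library 2 of P0, 0 and 4 without library 1 of W4, 2 and 2 without library 2 of W4, and 1 more positive without library 1 of P0). Of 12 capillary genes, Gpihbp1 and Rgcc were more positive in EnA (1.69 ± 0.27 and 2.56, adjusted p = 0.0032 for Gpihbp1). Against EnC alone the difference of Gpihbp1 still passed (1.39 ± 0.30, adjusted p = 0.036) and that of Rgcc did not (1.53 ± 0.47, adjusted p = 0.17). In EnC, Gpihbp1 was at 2936 and 2916 CPM at P0 and 2106 and 2348 CPM at W4, above EnA at both ages. Hspb1 had a difference of 1.74, and it rose in EnC as well, from 394 and 437 CPM to 3314 and 2807 CPM. Pecam1 had a difference of -0.73 ± 0.14 (adjusted p = 0.011), lost without library 2 of W4 (-0.58, adjusted p = 0.17) and against EnC alone (-0.56, adjusted p = 0.13). It was at 966 and 945 CPM in EnC at P0 and at 1409 and 1487 CPM at W4.

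The newborn libraries address whether loss of 1 copy each of Tbx1 and Crkl changes the subtype. Tbx1 was at 0 UMIs in the EnA cells of all 6 libraries, where 3 UMIs would be 21.2 CPM in the deepest, and over all cells it was at 0, 0 and 0.872 CPM in the libraries labelled Tbx1+/-Crkl+/- and at 1.79, 0.441 and 0.605 CPM in WT. Crkl over all cells was at 24.1, 23.6 and 26.9 CPM and at 23, 25.1 and 18.4 CPM. Transcript counts thus give no check of the Crkl genotype. The libraries held 11, 25 and 10 EnA cells and 19, 11 and 41 EnA cells respectively, and 867 genes passed the filter. None of them passed the test (0%), edgeR's quasi-likelihood test giving 22 and DESeq2 13 at an unadjusted p under 0.05, and DESeq2 also giving none after adjustment. Gja4 was at 142.9, 431 and 432 CPM in the mutant libraries and 398, 467 and 1024 CPM in WT, which overlap (log2 -0.83 ± 0.40, adjusted p = 0.998 by edgeR). Sox17 was at 893, 862 and 576 CPM and at 537, 674 and 1101 CPM (log2 0.07 ± 0.34, adjusted p = 0.998 by edgeR). In a simulation with the same number of libraries 44.0% of 4-fold changes were recovered. Its spread between libraries was fixed and not estimated from these data.

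The bulk CD31+ libraries hold all endothelium, so they stand beside the EnA values rather than repeat them, and fewer cells of a type and less RNA per cell cannot be told apart in them. Transcripts of other cell types moved with age here too. Of the red cell genes 5 of 5 tested were higher at 4 weeks (median log2 5.35), and the 8 listed summed to a median of 39.9 CPM at P0 (7.57 to 342) and 2953 CPM at 4 weeks (297.9 to 7800). The 10 mural cell genes summed to 69.3 CPM (51.4 to 163.4) and 1240 CPM (678 to 1877), with 1 of 5 tested called higher (median 3.30). Their part in the bulk changes was not tested. From P0 to 4 weeks 577 of 11333 genes passed (5.09%), 361 higher (3.19%) and 216 lower (1.91%). Antigen presentation genes were higher in 11 of 15 cases with none lower, interferon response genes in 4 of 16, and 10 of 11 fetal growth genes were lower. H2-K1 had a median of 621 CPM at P0 (474 to 924) and 1859 CPM at 4 weeks (1732 to 2017), with no overlap (log2 1.61 ± 0.17, adjusted p = 6.05e-05). H19 had a median of 403 CPM at P0 and of 0 at 4 weeks, where the highest library had 3.84 CPM. Cxcl12 rose from a median of 293 CPM to 2130 CPM (log2 2.95 ± 0.16, adjusted p = 1.17e-07), where EnA alone had changed by 0.23. Gja5 rose (log2 1.52 ± 0.26, adjusted p = 0.00275), from a median of 360 CPM to 1208 CPM, and so did Hey1 (log2 1.22, adjusted p = 0.0099), whereas neither passed within EnA and the share of EnA among endothelial cells was 10.2% and 10.7% at P0 and 18.6% and 16.0% at W4. Eln did not pass in bulk (log2 -1.28 ± 0.61, adjusted p = 0.30), and Gja4 did not either (-0.53 ± 0.27, adjusted p = 0.35).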

How the data were processed

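Single cells of the thymic stroma of mice at 5 ages (8 libraries) and of newborn Tbx1+/-Crkl+/- mice and WT littermates (6 libraries), and sorted CD31+ cells in bulk (12 libraries), were used. Reads of the single-cell libraries had been counted with Cell Ranger 3.1.0. The deposited tables hold raw UMI counts (whole numbers, genes by cells) and the subtype of each cell. Before deposit the authors had discarded cells with few genes or a high share of mitochondrial transcripts, likely doublets, and clusters of other lineages. The bulk data were deposited as whole read counts per Ensembl gene (STAR 2.5.3a and HTSeq, per the submitters' processing notes, which list mm10). Entries of no gene, 10.4 to 13.5% of the bulk counts, were left out. Other sorted populations were not used here.

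UMIs were summed over the cells of a subtype in each library with at least 10 such cells, and levels (CPM) are counts scaled to a sum of 1000000. The 3′ tags were compared only within a gene. Genes were tested with edgeR 4.0.16 in R 4.3.3 (filterByExpr, TMM, quasi-likelihood test), with p adjusted by Benjamini and Hochberg over all genes tested at a threshold of 0.05. Errors of log2 changes are SE. DESeq2 1.42.0, no filter, equal numbers of cells, other sets of libraries and a replicate block were alternatives. In tests between ages, only libraries of E16.5, P0 and W4 were left out singly. Tested on simulated data with known 4-fold changes, the change from P0 to W4 was recovered in 50.5% of cases and the bulk change in 91.0%. The simulated spread was fixed and not estimated from the data, so these shares need not hold for the real counts. The members of EnA and the gene lists were chosen with earlier results of these data known. Besides list members, the named genes are the 10 largest changes in each direction among genes past the threshold with at least 50 CPM in the higher group and groups that do not overlap, the 10 smallest p in each direction for the comparison with EnC and EnVL, and the 20 largest ratios of EnA over the other subtypes (log2 of CPM + 1). A gene that met these rules is not reported here. A fold against a group at 0 used 3 UMIs over that group. Over both libraries of an age, 3 UMIs made 2.53 CPM at E16.5, 5.16 at P0 and 3.10 at W4. Folds against levels of a few CPM are thus imprecise. Shares and correlations were computed in Python 3.11.15.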

Additional observations from a re-analysis of the deposited data

Results flagged for a closer look

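Changes from P0 to W4 that differed between EnA and the mean of EnC and EnVL by the interaction test are given here. They are those of genes among the 10 smallest p in each direction and of some further list members, not of every list member that passed. More positive in EnA were Rgs5 (log2 difference 2.84), Gnas, which encodes a stimulatory G protein subunit (0.87), the creatine kinase gene Ckb (2.17), the scaffold gene Akap12 (2.72), Hspb1 (1.74), the endothelin receptor gene Ednrb (2.12), the protease inhibitor gene Timp3 (1.32), the tetraspanin gene Cd9 (1.03), Tmem158 (2.24), Emid1 (4.93), Gpihbp1 (1.69), Rgcc (2.56), Col18a1 (1.48), Tgfb2 (2.49) and the taurine transporter gene Slc6a6 (1.38). More negative were Cxcl12 (-3.99), Eln (-2.62), Ehd4 (-2.59), 8430408G22Rik (-2.96), Sparc (-0.78), the cathepsin gene Ctsl (-1.40), Tspan7 (-1.83), Sfrp2 (-5.77), Cpq (-2.995), Ltbp4 (-1.34), Bmp4 (-2.90) and Pecam1 (-0.73). These 27 genes had been picked by p or by list, so their values are not a sample of all genes. Calls of Timp3, Cd9 and Col18a1 were lost without library 1 of W4, those of Sfrp2, Tgfb2 and Slc6a6 without library 1 of P0 or library 1 of W4, that of Bmp4 without library 1 of P0 or library 2 of W4, and those of Ltbp4 and Pecam1 without library 2 of W4. Against EnC alone, 19 of the 27 calls held and 8 were lost, those of Ednrb (1.09), Cd9 (0.74), Tmem158 (0.64), Rgcc (1.53), Col18a1 (1.06), Tgfb2 (1.52), Slc6a6 (0.71) and Pecam1 (-0.56), with adjusted p from 0.0503 to 0.615. Against EnVL alone 26 of the 27 calls held, and that of Bmp4 was lost. Rgs5 is a mural cell gene, and mural genes in EnA summed to 391 to 1191 CPM at P0 and 1212 to 3863 CPM at W4.

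In the bulk CD31+ data, 10 of 38 groups of 6 libraries held a library far from the others by Dixon's criterion, which chance flags in about 1 of 20 groups. At 4 weeks these were replicate 1 for Cxcl12 (3024 CPM), Pecam1 (2153 CPM), Eln (254 CPM) and Col18a1 (5.87 CPM), replicate 4 for H19 (3.84 CPM), and replicate 5 for Psmb8 (459 CPM) and Gpihbp1 (314 CPM). At P0 they were replicate 6 for Eln (1368 CPM) and Ltbp4 (357 CPM), and replicate 1 for Pecam1 (968 CPM). The 38 groups are 19 genes at 2 ages and share their 12 libraries, so that 1 library can appear under several genes. For H19 all other libraries at 4 weeks were at 0, so any count above 0 in replicate 4 would have been flagged.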

How the results depend on the processing

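Shares of genes past the threshold are given in percent of the genes tested in the reported fit, higher before lower. Without the filter on low counts they were 4.01% and 4.0% from E16.5 to P0, and 1.62% more positive and 1.97% more negative in EnA than in the other endothelium. The Wald test of DESeq2 called 0.798% and 1.04% from E16.5 to P0, 1.23% and 2.248% from P0 to W4, 3.43% and 4.40% from E16.5 to W4, and 5.85% and 4.12% in bulk. With 29 cells drawn per library, 1.23% and 1.06%, then 2.19% and 2.73%, and 8.13% higher passed in these intervals. Leaving out 1 library gave 0.810 to 2.22% and 0.677 to 2.14% from E16.5 to P0, 1.90 to 3.505% and 1.79 to 4.40% from P0 to W4, 6.27 to 13.48% and 5.37 to 14.0% from E16.5 to W4, and 0.173 to 0.743% and 0.224 to 0.896% against the other endothelium. Against EnC alone 0.326% were more positive and against EnVL alone 1.07%, and without cells of over 1% other transcripts 1.23% were more negative. With the title prefix as a term in the bulk fit, 3% and 1.72% passed. The change in EnA share from E16.5 to P0 turned from -0.30 to 0.74 as a share of endothelium, and that from E16.5 to W4 was 1.60 to 2.15 with 1 library left out. Thinning brought the shares of EnA cells with a UMI to 69.4% for Sox17, 48.3% for Kitl, 88.7% for Pecam1 and 29.4% for Egfl8. Of the calls of named genes, the Wald test lost 18 of 64 from E16.5 to P0, 24 of 82 from P0 to W4 and 3 of 49 from E16.5 to W4, counting those it gave an adjusted p, and equal numbers of cells lost 21 of 70, 33 of 95 and 2 of 48. None of these calls changed its direction under any alternative that gave it a value.

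The deviations of same-numbered libraries correlated at -0.037, -0.014 and 0.074 in the age series and 0.175, -0.001 and -0.007 in the newborn data. No pairing by replicate number was seen, but sums over few cells are noisy, so this check cannot show that libraries were unpaired. With the replicate block 2.36% and 1.98%, 4.17% and 4.05%, and 12.7% and 10.1% of genes passed in the 3 intervals, and none between the genotypes. With 2 libraries per age and 29 to 79 EnA cells in each from E16.5 on, a gene that missed the threshold is not shown to be unchanged.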
